A study of Mus musculus with 4 samples.

Results

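The Hox genes of the mouse lie in 4 clusters, HoxA to HoxD, and the 38 named here were examined for binding of the histone demethylase Fbxl10, also called Kdm2b, among 21887 protein-coding genes. They were taken as a list of gene names, 10 of HoxA, 10 of HoxB, 9 of HoxC and 9 of HoxD. The list does not hold every Hox gene of the mouse, so counts by cluster and by gene number cover listed genes alone. The rule uses no peak value, but the list was drawn up with earlier results of these data known. Binding was read from lists of peaks, stretches of the genome where chromatin immunoprecipitation and sequencing (ChIP-seq) found more fragments than around them. The cells were mouse embryonic fibroblasts (MEFs) from a gain of function model, and the labels give all 4 libraries the genotype of HA-tagged Fbxl10 overexpression. In the induced group 1 µg/ml doxycycline was given for 48 hours to switch on HA-Fbxl10, and in the non-induced group no doxycycline is named. Each precipitation used 7 µg of chromatin and 5 µg of an HA antibody (ab9110, Abcam). No precipitation from cells without the tag is among the libraries. Whether a peak, above all a non-induced one, is binding of HA-Fbxl10 was therefore not tested. Induced peaks concern the overexpressed tagged protein and not Fbxl10 without the tag. Each group also had an input library, which was not read directly here. The protocol speaks of 3 independent samples, but 1 peak list per group was analysed, and the labels do not say how those samples relate to the list. With 1 list per group there is no replicate check, so all values are descriptions of these lists and no test between the groups was made. Neither the promoter that drives the transgene nor the age of the embryos is stated in the labels. Peak lists carry no expression, so the fibroblast label could not be checked against marker genes.

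Hox genes encode homeodomain transcription factors that give segments along the body axis and the limbs their identity. Genes with low numbers lie at one end of a cluster and act towards the head, and genes with high numbers lie at the other end and act towards the tail. Genes that carry the same number in different clusters are paralogs and often share tasks. In cells that do not use them, Hox clusters are a classic target of Polycomb complexes. Fbxl10 has a zinc finger that binds unmethylated CpG, and it is a subunit of a Polycomb complex that modifies histone H2A.

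The induced list held 24 peaks inside the 4 clusters and the non-induced list 5, although the non-induced list was 1.92 times as long (5497 induced and 10532 non-induced peaks). A cluster is taken here from the first to the last border of its listed genes, in all 485 kb. Induced peaks covered 4.77% of that length, at 4.95 peaks per 100 kb, and non-induced peaks covered 0.612%, at 1.03 per 100 kb. Over all chromosomes with genes the induced list had 0.204 peaks per 100 kb and the non-induced list 0.391. Hox clusters are dense in genes, so tiles of 100 kb with at least 8 protein-coding genes, anywhere in the genome, were counted too. These 120 tiles held a mean of 1.53 induced and 0.167 non-induced peaks, and 13 of them (10.8%) held 4 or more induced peaks. The limits of 8 genes and 4 peaks were chosen after the values were seen. Each peak has a score, the authors' own value, used here to rank peaks within a list. Read totals are unknown. The ranges printed beside shares are exact 95% binomial intervals, which take in counting error alone.

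**Figure D1:**
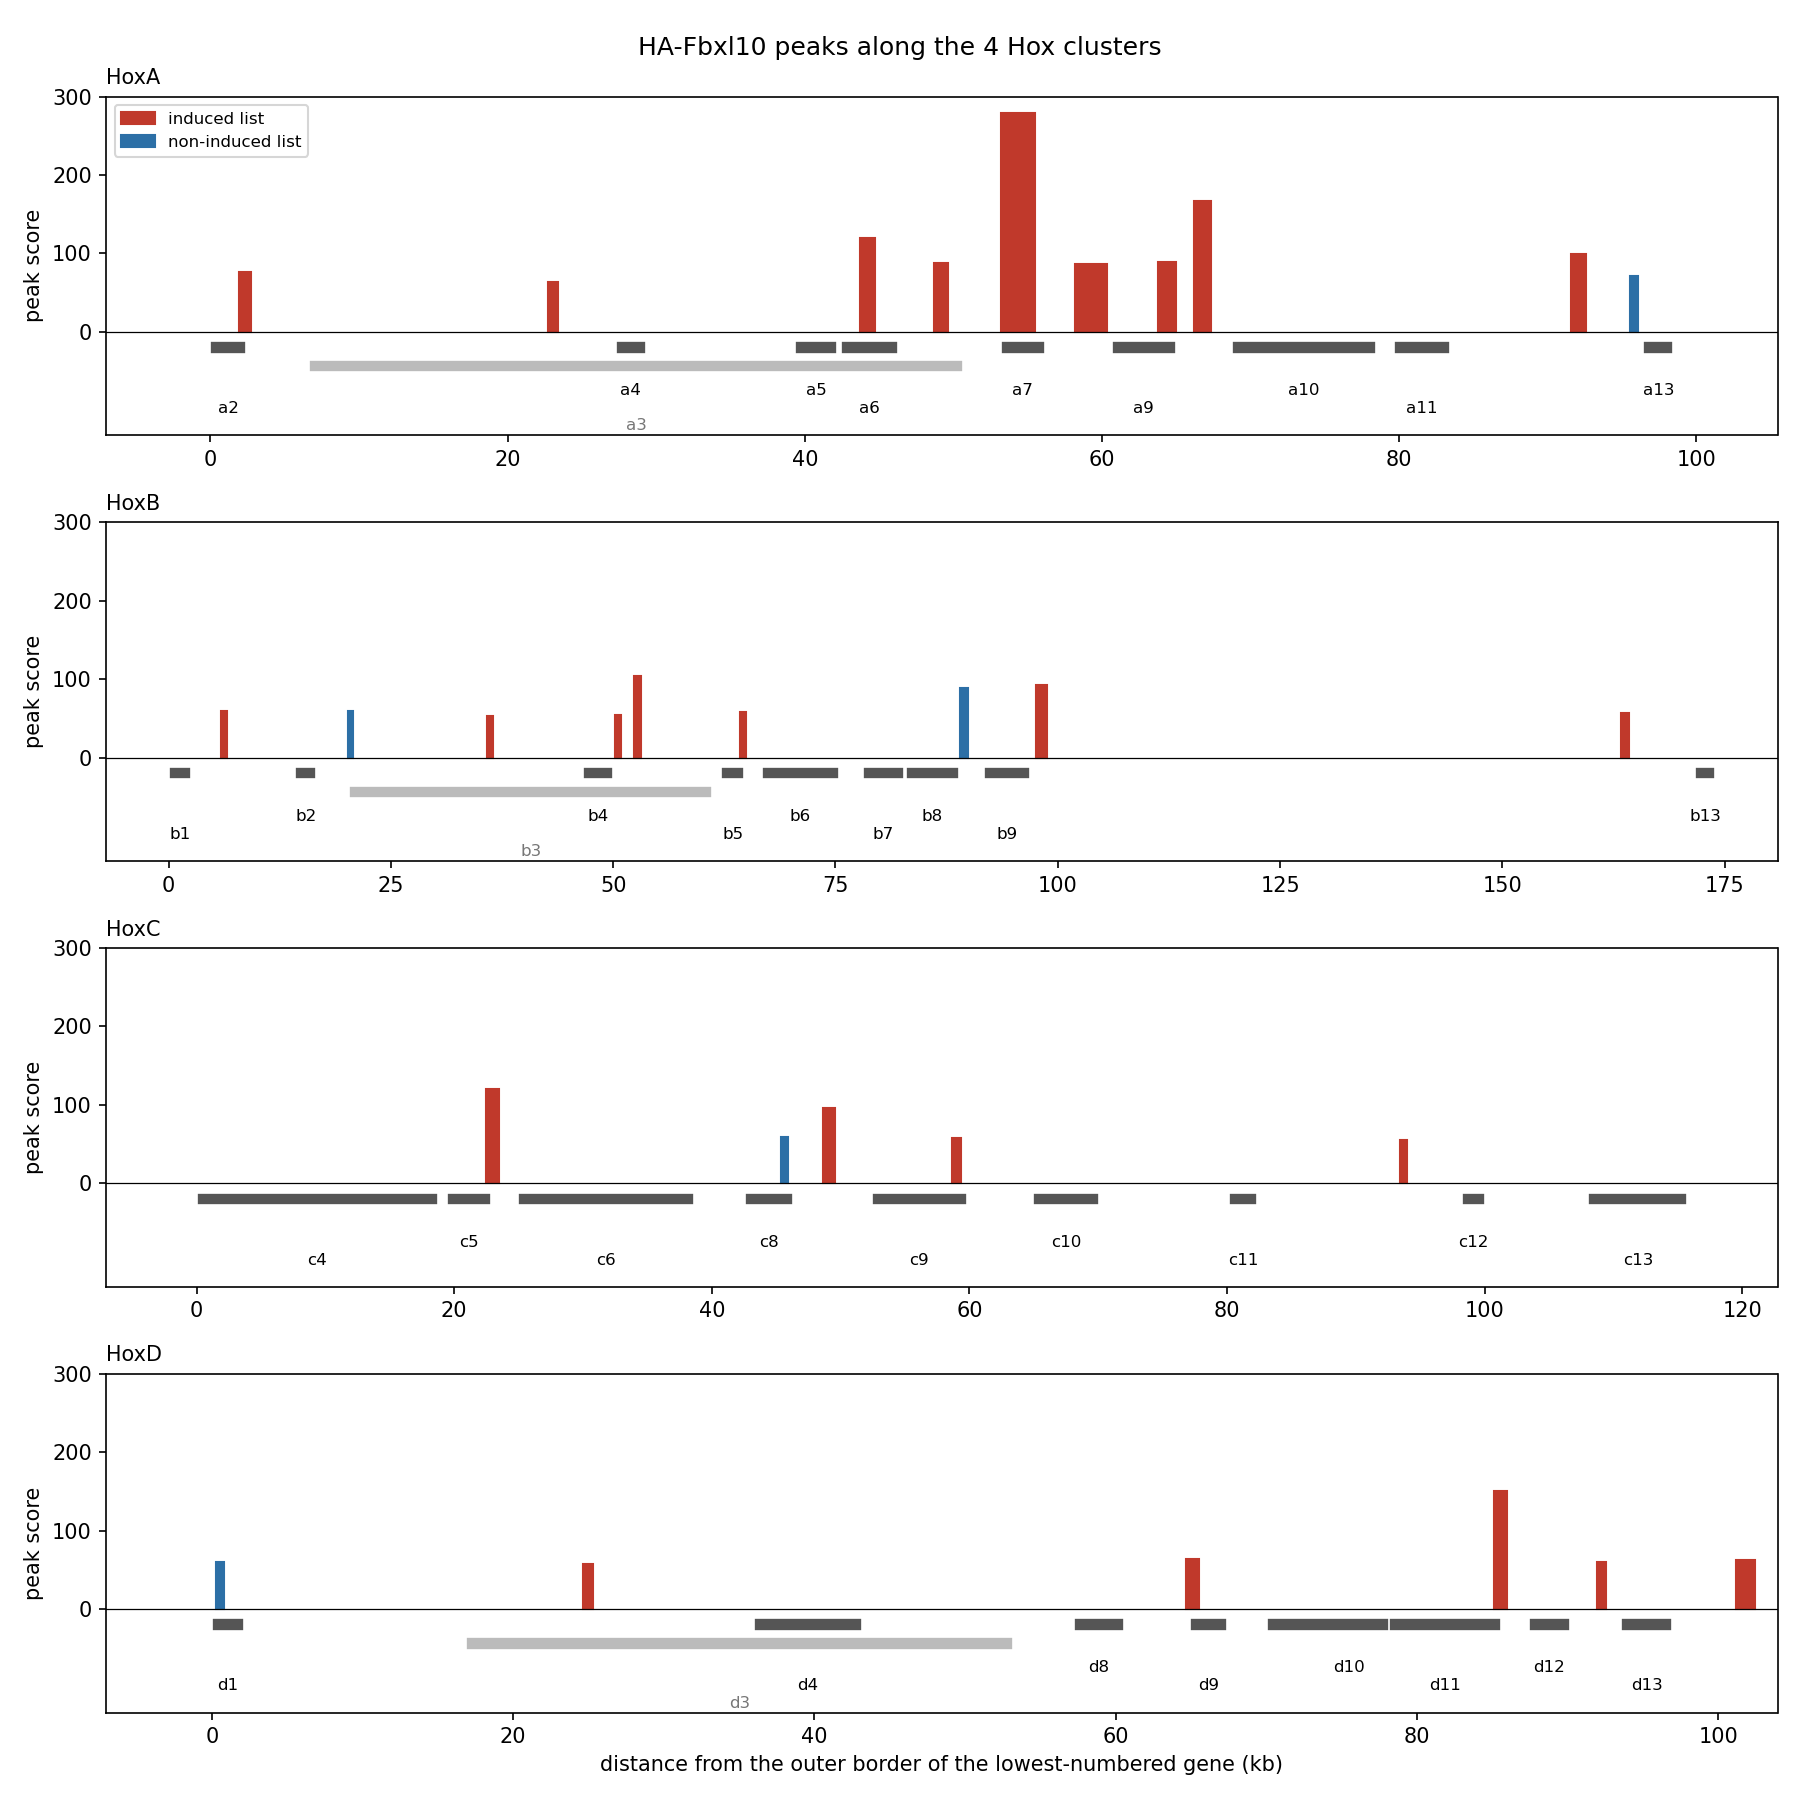
Peaks along each Hox cluster, with distance in kb from the outer border of the lowest-numbered listed gene on the x axis and the authors' peak score on the y axis; red bars are induced peaks, blue bars non-induced peaks, dark boxes genes and pale boxes the long gene models of Hoxa3, Hoxb3 and Hoxd3. HoxA carries 9 of the 24 induced peaks and the highest score, 279.53 at Hoxa7, and the red bar beyond Hoxd13 lies outside the cluster.

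HoxA, on chromosome 6 from 52162417 to 52260880 (mm10), carried the most peaks. It had 9 induced peaks, which covered 11.3% of its 98.5 kb at 9.14 per 100 kb, and 1 non-induced peak. A further non-induced peak (score 57.9) lay outside these limits, 6888 bp beyond the end of Hoxa2. The limits are set by the listed genes, so this peak need not lie outside the full cluster. Of the 9 peaks, 6 lay in a run of 23.7 kb from Hoxa6 to the space between Hoxa9 and Hoxa10. The median space between neighbouring induced peaks was 3.79 kb in HoxA, against 21.5 kb in HoxB, 25.1 kb in HoxC and 19.6 kb in HoxD. The longest stretch of HoxA without an induced peak, 24.2 kb, held the whole of Hoxa10 and Hoxa11, genes known from the uterus.

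The other clusters were sparser and close to each other in density. HoxB (chromosome 11, 96194316 to 96368254) had 7 induced peaks, or 4.02 per 100 kb, and 2 non-induced peaks. Its longest stretch free of induced peaks, 64.6 kb, held none of the listed genes, as it lies between Hoxb13 and Hoxb9. HoxC (chromosome 15, 102921131 to 103036856) had 4 induced peaks, or 3.46 per 100 kb, and 1 non-induced peak. Its longest free stretch, 34.1 kb, held Hoxc10 and Hoxc11. HoxD (chromosome 2, 74668225 to 74765142) had 4 induced peaks, or 4.13 per 100 kb, and 1 non-induced peak. There the longest free stretch was 39.4 kb and held Hoxd4 and Hoxd8. A further induced peak (score 62.7) lay within 5 kb of HoxD, on the outer side of Hoxd13.

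At gene borders, 10 of the 38 Hox genes (26.3%, 13.4 to 43.1) had an induced peak within 1 kb of their start or end, where 13.4% of all protein-coding genes had one. In the non-induced list 5 (13.2%, 4.41 to 28.1) did, where 1.59% of all genes had one. No Hox gene was in both sets, but the share of all genes in both is not given here, so nothing is read from this. The lower limit of the induced interval lies at the background, and the genes of a cluster are not independent of each other. Of the 10 genes, 3 each were in HoxA and HoxB and 2 each in HoxC and HoxD. By the place of the gene number, 1 of 7 anterior genes (numbers 1 to 3), 4 of 15 central genes (4 to 8) and 5 of 16 posterior genes (9 to 13) had an induced border peak. With so few genes these shares cannot be ranked: their intervals ran from 0.361% to 57.9%, from 7.79% to 55.1% and from 11.0% to 58.7%.

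**Figure D2:**
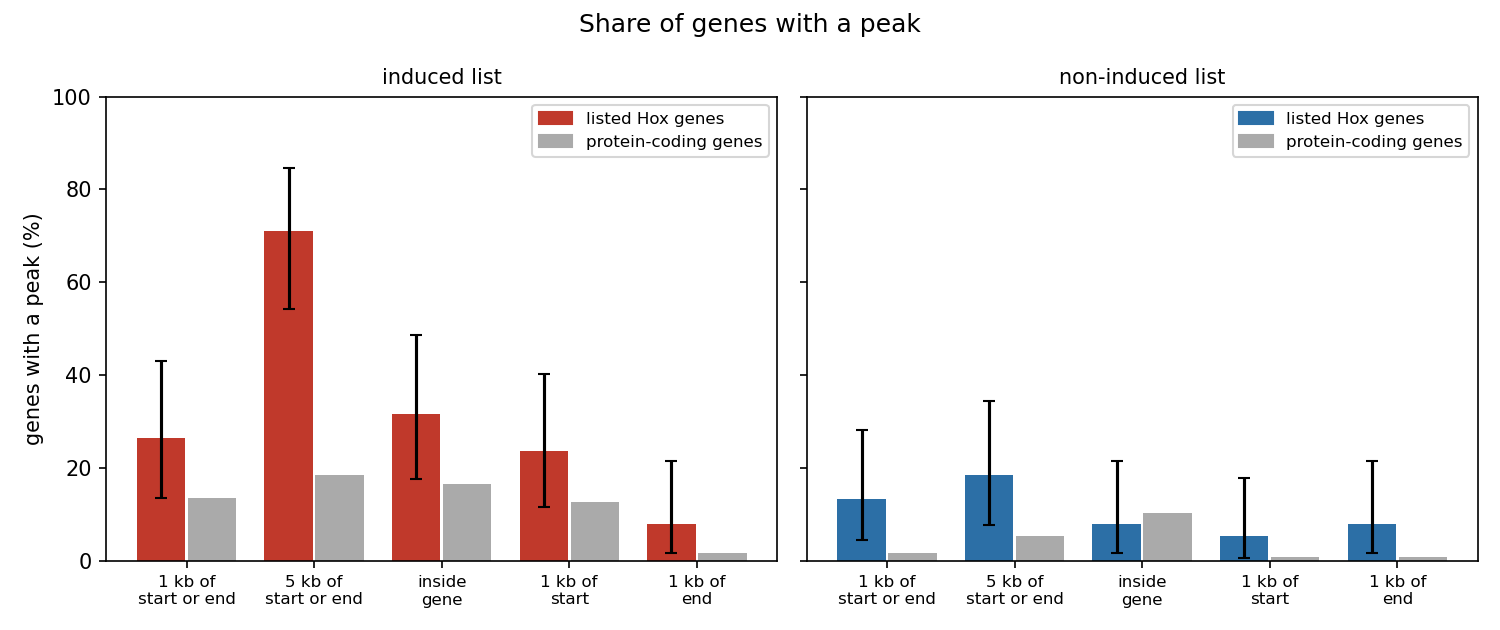
Share of genes with a peak, in %, by place relative to the gene; coloured bars are the 38 Hox genes with exact 95% binomial intervals, grey bars all protein-coding genes (for start and end alone, those with a known strand). Within 5 kb 71.1% of Hox genes had an induced peak, against 18.4% of all genes. Of 87 homeobox genes outside the clusters, not drawn here, 47 had one.

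Within 5 kb of a border, 27 of the 38 genes (71.1%, 54.1 to 84.6) had an induced peak, against 18.4% of all protein-coding genes. In the non-induced list 7 (18.4%, 7.74 to 34.3) did, against 5.36% of all genes. The 5 kb windows of neighbours overlap, so that 22 separate induced peaks served the 27 genes and 5 non-induced peaks the 7. By cluster the induced counts were 9 of 10 in HoxA, 6 of 10 in HoxB, 6 of 9 in HoxC and 6 of 9 in HoxD. The genes in both sets were Hoxa13, Hoxb3, Hoxb9 and Hoxc8, again without a share of all genes to set beside them. Neither list had a peak within 5 kb of the borders of Hoxa11, Hoxb7, Hoxb13, Hoxc10, Hoxc11, Hoxc13, Hoxd3 or Hoxd4. By distance from a border, Hoxb9 was just inside the 1 kb limit, at 569 bp from its induced peak, and just outside were Hoxa3 at 1024 bp and Hoxd13 at 1025 bp. At the 5 kb limit Hoxc12 was inside, at 4251 bp, and Hoxc10 outside, at 5599 bp. In the non-induced list Hoxc8 (401 bp) was the last inside 1 kb and Hoxb9 (1776 bp) the first outside. At 5 kb these were Hoxb2 (3602 bp) and Hoxb7 (6349 bp). Other gene lists, described below, also held many genes with an induced peak within 5 kb. They were 47 of 87 homeobox genes outside the clusters, 15 of 33 Polycomb and Trithorax genes and 11 of 16 noncoding genes of the clusters. Among Hox cofactors it was 4 of 9, among genes beside the clusters 6 of 18 and among upstream genes 1 of 11. A non-induced peak lay within 5 kb at 8 of the 87 homeobox genes and 4 of the 16 noncoding genes. For genes beside the clusters it was 1 of 18, for upstream genes 1 of 11, and for the other lists 0. Whether Hox genes differ from these lists was not tested.

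An induced peak overlapped 12 of the 38 genes (31.6%, 17.5 to 48.7), against 16.5% of all protein-coding genes, and a non-induced peak 3 (7.89%, 1.66 to 21.4), against 10.2%. The non-induced share is thus near its background. Gene length was not taken into account.

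The start side held most of the border peaks of the induced list. With 1 kb around the start alone, 9 of the 38 genes (23.7%, 11.4 to 40.2) had an induced peak, where 12.7% of protein-coding genes with a known strand had one. Around the end 3 did (7.89%, 1.66 to 21.4), where 1.62% of genes had one. In the non-induced list it was 2 at the start (5.26%, 0.644 to 17.7; background 0.863%), Hoxb8 and Hoxc8, and 3 at the end (7.89%; background 0.800%), Hoxa13, Hoxb3 and Hoxd1. The strand was read from RefSeq promoter windows, which matched 22 of the 38 genes. The other 16 were given the strand that the matched genes of their cluster all share.

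Of the 24 induced peaks in the clusters, 5 lay over a gene start, 4 within 1 kb of one, 2 within 1 kb of an end, 6 elsewhere inside a gene and 7 between genes. Only the listed Hox genes count here, so a peak between genes can overlap another annotated gene. The 5 non-induced peaks split into 2 within 1 kb of a start and 3 within 1 kb of an end. Of those, 0 lay over a start.

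The 5 genes with an induced peak over the start were Hoxa2, Hoxa9, Hoxb5, Hoxc5 and Hoxd11. At Hoxd11, which shapes the forearm together with Hoxa11, the peak ran from 74679205 to 74680071 on chromosome 2 (867 bp, score 151). It ranked 372 of 5497 in the induced list. This peak lay over the outer start of Hoxd11, and a second annotated start was more than 1 kb from it. At Hoxc5 the peak spanned 103013339 to 103014387 on chromosome 15 (1049 bp, score 120.53, rank 698). At Hoxa9, a regulator of blood stem cells and a driver of leukaemia, it spanned 52226192 to 52227392 on chromosome 6 (1201 bp, score 89.1, rank 1568). Hoxa2, which sets the identity of the hindbrain and the branchial arches, had a peak from 52164356 to 52165125 (770 bp, score 76.2, rank 2093). The weakest of the group was at Hoxb5, with 756 bp from 96303286 to 96304041 on chromosome 11 (score 57.5, rank 3801). From Hoxd11 to Hoxb5, these peaks stood above 93.2% to 30.9% of their list.

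Of the 4 genes with an induced peak near but not over the start, Hoxa7 had the highest score of all Hox peaks. This gene patterns the thoracic spine, and its peak covered 2303 bp from 52215618 to 52217920 (score 279.53, rank 47 of 5497). The peak began 653 bp inside the gene, counted from the start, and reached past the gene's end, so that it lay over the body and not over the start. At Hoxb9, which patterns the ribs, the peak lay 569 bp before the start (96269524 to 96270761, score 92.0). At Hoxb4, used to expand blood stem cells, it lay 187 bp before the start (96317422 to 96318080, score 54.6). At Hoxc9, which defines thoracic motor neurons, it lay 465 bp behind the start (102977497 to 102978219, score 57.4).

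At gene ends, Hoxd9 had an induced peak over its end (74699641 to 74700498, score 63.7). Hoxa9 had a second peak 369 bp beyond its end (52220636 to 52222728, 2093 bp, score 85.9). The paralogs numbered 9 were therefore the one group in which every listed member, 4 of 4, had an induced peak within 1 kb of a border: Hoxa9, Hoxb9, Hoxc9 and Hoxd9. Other windows gave other groups. Hoxb9, at 569 bp, lies outside a window of 500 bp, and at 5 kb the numbers 5, 6 and 12 were complete too, with 3 of 3, 3 of 3 and 2 of 2 genes. In 2 of the 4 genes numbered 9 the score was under 66.6, the median of the list. Of the genes numbered 5, Hoxb5 and Hoxc5 had one and Hoxa5 did not. The numbers 2, 4, 7 and 11 had 1 gene each, and no gene numbered 1, 3, 6, 8, 10, 12 or 13 had one. The non-induced peaks fell on 2 of 3 genes numbered 8 and on 1 gene each of the numbers 1, 3 and 13. This pattern over numbers was picked out after the values were seen and was not tested.

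Of the 23 Hox genes with no peak of either list within 1 kb of a border, 15 had one within 5 kb and 8 had none. Distances here run from the nearer border to the peak, which can lie inside the gene. That is the case for Hoxa3 and Hoxa6, which hold an induced peak, and for Hoxd3, which holds one far from its borders. In HoxA, the borders of Hoxa3 (1024 bp from an induced peak), Hoxa6 (1262 bp), Hoxa10 (1409 bp), Hoxa5 (1533 bp) and Hoxa4 (3861 bp) lay close to the dense run or to the peak before it. In HoxB, Hoxb6 (1717 bp) and Hoxb1 (3419 bp) were within 5 kb of an induced peak, and Hoxb2 (3602 bp) of a non-induced one. In HoxC these were Hoxc6 (1457 bp), Hoxc4 (3710 bp) and Hoxc12 (4251 bp) beside induced peaks. In HoxD, Hoxd13 (1025 bp), Hoxd12 (1500 bp), Hoxd8 (4117 bp) and Hoxd10 (4202 bp) flanked the induced peaks at Hoxd9, at Hoxd11 and between Hoxd12 and Hoxd13. Of the 8 genes without a peak within 5 kb of a border, Hoxc10 had the border nearest to an induced peak, at 5599 bp, and Hoxc13, a gene of hair and nails, the farthest, at 14046 bp. For Hoxd3, with its peak inside, this border distance was 7774 bp.

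**Figure D3:**
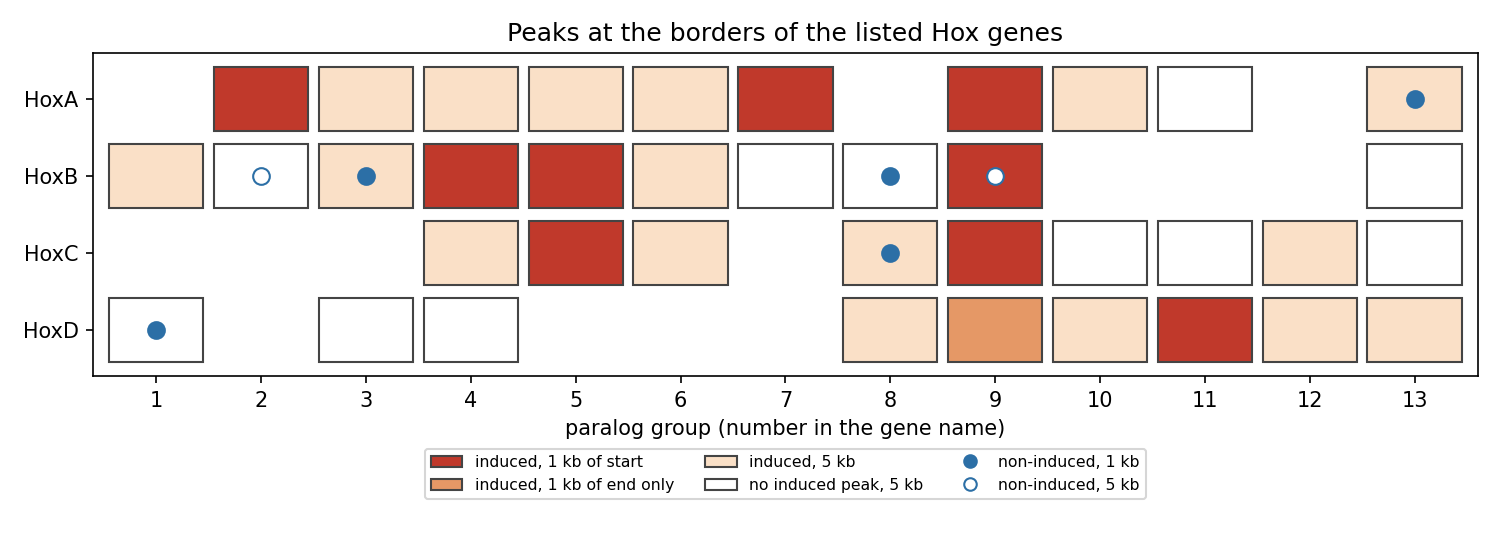
Each listed Hox gene as a square, by cluster (rows) and number (columns); the fill gives the nearest class of induced border peak and the blue circle a non-induced peak within 1 kb (filled) or 5 kb (open). Column 9 is the one column in which all squares have an induced peak within 1 kb, and columns 5, 6, 9 and 12 are filled at 5 kb.

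Inside genes but away from borders, the highest induced peak lay in Hoxa6 (52206120 to 52207144, score 120.02), 1528 bp behind its start. It was also the nearest induced peak to Hoxa5, a gene of lung and neck development, at 1533 bp before its start. The other 5 peaks of this class lay in the long models of the genes numbered 3, which run over their neighbours and whose long transcripts make "inside" a loose term. Hoxa3 held 2 besides that of Hoxa6, with scores of 63.7 and 87.2, and the one of 87.2 ended 1024 bp behind its start. Hoxb3 held 2 away from borders (103 and 52.6) and Hoxd3 held 1 (58.1).

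Between the listed genes the highest induced peak lay between Hoxa9 and Hoxa10 (52228599 to 52229788, 1190 bp, score 167, rank 270). This peak overlapped Gm52902, a gene not annotated as protein-coding. It stood before the start of Hoxa9, 1409 bp from the end of Hoxa10 and 292 bp from Mir196b, a microRNA gene known to target Hox transcripts. The other 6 peaks between the listed genes had scores from 54.6 to 99.6. The one of 99.6 lay 3863 bp from the end of Hoxa13, a gene of digits and the genital tract, and one of 95.5 lay 2295 bp before the start of Hoxc8, which acts in brachial motor neurons.

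The 5 non-induced peaks in the clusters were 485 to 885 bp wide, where the induced ones were 543 to 2303 bp. At Hoxb8, which acts in microglia and in grooming behaviour, the peak ended 146 bp before the outer start of the gene (96278371 to 96279255, 885 bp, score 89.0, rank 693 of 10532). At Hoxa13 it lay 370 bp beyond the end (52257931 to 52258483, score 70.9). Hoxd1, a gene of pain-sensing neurons, had its peak 297 bp before the end (74764328 to 74764845, score 60.4). Hoxb3 had one over its end (96347546 to 96348030, score 59.3), and Hoxc8 one 401 bp behind its start (102990940 to 102991465, score 59.3). Of these genes Hoxd1 lay farthest from any induced peak, at 22.5 kb from its start. Scores of different lists were not set against each other, because a common scale is not known.

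Induced and non-induced peaks did not meet in the clusters. Of the 24 induced peaks 0 overlapped a non-induced one, which allows a share of up to 12.5%, and the closest came within 2.70 kb, before and at Hoxc8. The share of all induced peaks that overlap a non-induced one is not given here. The 0 can therefore not be read as particular to the Hox clusters. At Hoxa13 the space between an induced and a non-induced peak was 2940 bp. The median distance from a Hox gene's start to the nearest induced peak was 4.16 kb (median of 17492 genes with a strand, 110 kb), and to the nearest non-induced peak 27.2 kb (154.8 kb). Genes of a cluster share their nearest peaks.

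By score, the induced Hox peaks stood above 12.4% to 99.1% of their list. In the induced list 6 of 24 (25.0%) had a score of at least 100, close to the 21.2% of the whole list, and 13 of 24 were at or above its median. The median Hox peak stood above 65.6% of the list. Only Hoxa7 and the space between Hoxa9 and Hoxa10 were in the top 5% of the 5497 peaks. In width 15 of 24 reached the list's median of 758 bp, with a Hox median of 862.5 bp. In the non-induced list 0 of 5 had a score of at least 100, where 3.59% of the list had, and 1 of 5 reached the list's median width of 586 bp.

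**Figure D4:**
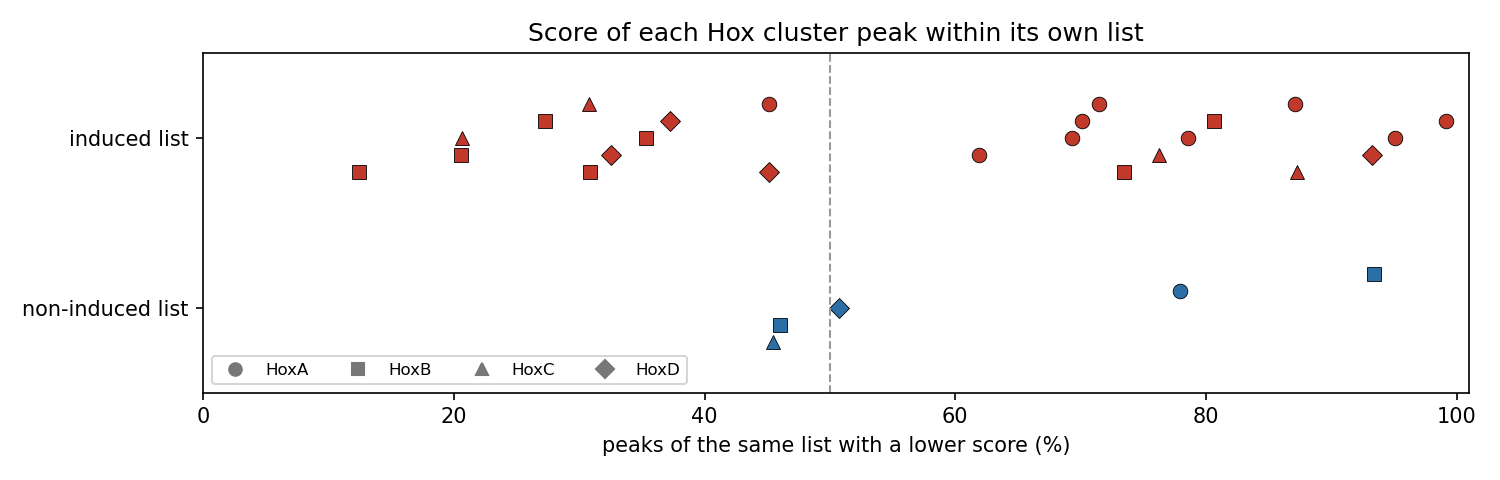
Each Hox cluster peak by the share of peaks of its own list with a lower score, in %; symbols give the cluster and the dashed line the middle of the list. Induced peaks run from 12.4% to 99.1%, with 8 of the 9 of HoxA right of the middle.

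The sequence before the starts was read from the RefSeq promoter windows (GRCm38.p6, the assembly of mm10). Windows were found for 22 members, 24 windows in all, and the 250 bases before each start were used. CG, which reads the same on both strands, was counted because the zinc finger of Fbxl10 binds unmethylated CpG. It occurred in all 24 Hox windows and in 93.4% of 21263 windows of protein-coding genes. Hox windows held 2 to 35 CG, with a median of 12.5, and all windows a median of 10. An induced peak lay over 4 of the 24 windows (16.7%; background 9.00%), those of Hoxa2, Hoxa9, Hoxb4 and Hoxd11. A non-induced peak lay over 0 of the 24, which allows up to 12.5% (background 0.226%). This 0 depends on the annotated starts. The Hoxb8 window belongs to an inner start, so the non-induced peak that ends 146 bp before the outer start of Hoxb8 did not count. The 4 windows under an induced peak are shown because peak and start sequence meet there, and Hoxa13 because it has the most CG and no induced peak within 1 kb of a border. Hoxa2 and Hoxa13 were chosen after their values were seen. The windows are chr6:52164832-52165081 for Hoxa2 (minus strand), chr2:74679308-74679557 for Hoxd11 (plus), chr6:52227371-52227620 for Hoxa9 (minus), chr11:96318017-96318266 for Hoxb4 (plus) and chr6:52260881-52261130 for Hoxa13 (minus). They are given 5′ to 3′, ending at the base before the start, with each CG in capitals:
Hoxa2: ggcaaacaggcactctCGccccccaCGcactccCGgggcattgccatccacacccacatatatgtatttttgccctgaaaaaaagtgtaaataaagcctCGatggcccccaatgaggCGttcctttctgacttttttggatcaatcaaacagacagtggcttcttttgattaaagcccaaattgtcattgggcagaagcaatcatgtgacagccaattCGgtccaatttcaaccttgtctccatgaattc
Hoxd11: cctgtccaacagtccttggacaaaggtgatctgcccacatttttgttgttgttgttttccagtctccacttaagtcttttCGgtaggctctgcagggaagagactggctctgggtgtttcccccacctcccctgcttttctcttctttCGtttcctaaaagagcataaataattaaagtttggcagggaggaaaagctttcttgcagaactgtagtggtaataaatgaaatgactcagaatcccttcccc
Hoxa9: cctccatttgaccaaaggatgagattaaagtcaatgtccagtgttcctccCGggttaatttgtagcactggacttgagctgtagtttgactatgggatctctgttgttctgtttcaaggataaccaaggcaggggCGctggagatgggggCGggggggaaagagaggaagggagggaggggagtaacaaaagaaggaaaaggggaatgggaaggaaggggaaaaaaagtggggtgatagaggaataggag
Hoxb4: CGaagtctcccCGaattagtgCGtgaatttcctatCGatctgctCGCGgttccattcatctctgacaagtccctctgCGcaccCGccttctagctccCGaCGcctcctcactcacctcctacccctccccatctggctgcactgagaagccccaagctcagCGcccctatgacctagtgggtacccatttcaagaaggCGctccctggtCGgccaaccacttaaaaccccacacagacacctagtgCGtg
Hoxa13: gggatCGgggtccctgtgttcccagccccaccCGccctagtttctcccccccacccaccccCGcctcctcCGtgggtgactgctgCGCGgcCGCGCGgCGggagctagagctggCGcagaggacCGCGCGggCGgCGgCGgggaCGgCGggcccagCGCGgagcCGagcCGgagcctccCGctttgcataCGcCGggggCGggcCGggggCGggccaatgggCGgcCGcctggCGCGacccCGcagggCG

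The induced peak covered all 250 bases at Hoxa2 and Hoxd11, 64 at Hoxb4 and 22 at Hoxa9. CG was sparse in 3 of these 4 windows, with 2 at Hoxd11, 3 at Hoxa9 and 6 at Hoxa2, and Hoxb4 had 14. Hoxa7, whose peak lay 653 bp away, had 7. The Hox windows richest in CG, Hoxa13 with 35, Hoxd13 with 31, Hoxa5 with 28 and Hoxa6 and Hoxd1 with 24 each, had no induced peak within 1 kb of the start. In all, 5 Hox windows had an induced peak within 1 kb of the start and a median of 6 CG, and 19 had none and a median of 13. Over all windows the order was the opposite, with a median of 19 CG in the 2822 windows with an induced peak within 1 kb and 8 in the 18441 without. Of all windows with at least 13 CG, 23.9% had an induced peak within 1 kb of the start, and of those with fewer 5.43%. In the Hox windows it was 1 of 12 and 4 of 12. The Hox counts are small and were not tested. They also leave out part of the 9 genes with an induced peak within 1 kb of the start. Hoxb5, Hoxb9, Hoxc5 and Hoxc9 have such a peak but no window, so their CG count is unknown. A second annotated start of Hoxd11, beyond the peak and more than 1 kb from it, had 20 CG. At Hoxb8 and Hoxc4 the window belongs to a start inside the gene, not to its outer border. The counts speak of these 250 bases and not of the sequence under the rest of each peak.

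**Figure D5:**
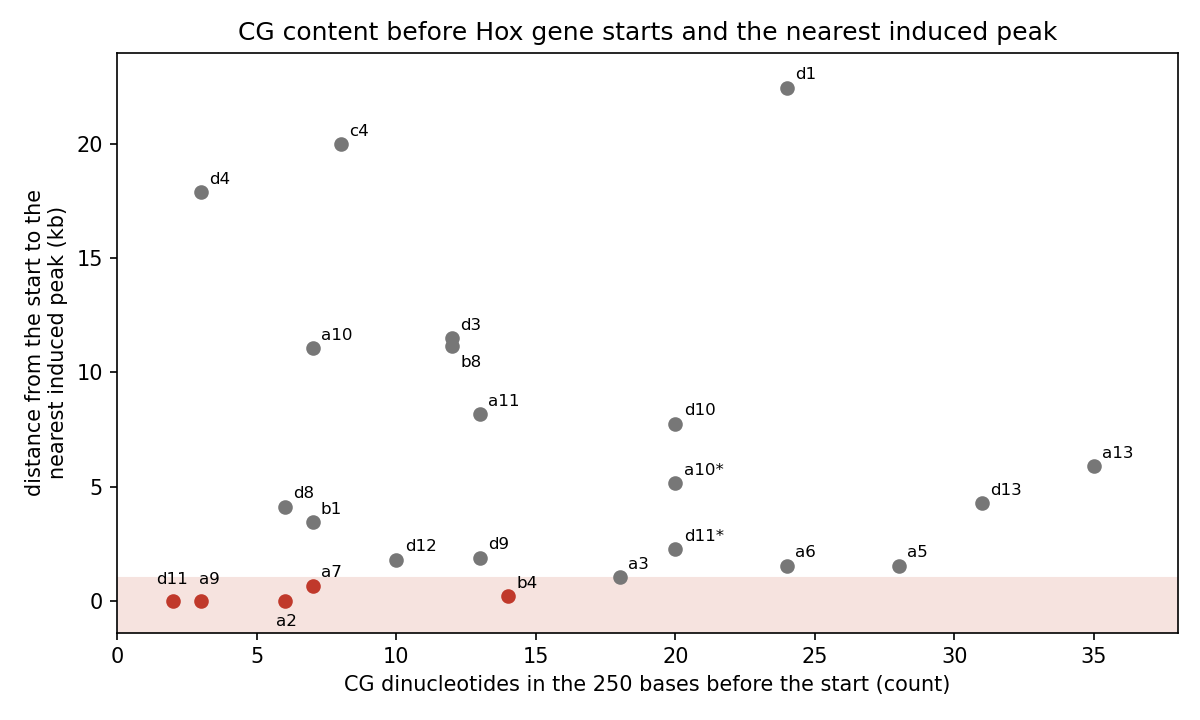
CG count in the 250 bases before each annotated Hox start (x axis) against the distance in kb to the nearest induced peak (y axis); red points lie within 1 kb (shaded) and asterisks mark a second start of the same gene. The 5 red points have 2 to 14 CG, and no window with more than 14 lies in the shaded band. Hoxb5, Hoxb9, Hoxc5 and Hoxc9 also have an induced peak within 1 kb of the start but have no window and are not drawn.

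Genes that work with the Hox clusters were read the same way, against 13.4% of all protein-coding genes with an induced and 1.59% with a non-induced border peak. Of 9 genes of Hox cofactors, proteins that bind DNA together with Hox factors, 2 (22.2%) had an induced border peak within 1 kb, Meis2 (score 126) and Meis1 (105). Of the 9, 0 had a non-induced one, which allows up to 33.3%. Of 33 Polycomb and Trithorax genes, whose products hold Hox genes silent or active, 12 (36.4%) had an induced peak and 0 a non-induced one, which allows up to 9.09%. The highest were Suz12 (183) and Pcgf1 (177), subunits of Polycomb complexes, then Rbbp5 (98.5) and Wdr5 (89.5), subunits of Trithorax-type methyltransferases. Of 11 genes that act upstream of Hox genes along the axis 1 (9.09%) had an induced peak, Fgf8 (57.0), and 0 a non-induced one. Of 87 homeobox genes outside the clusters 28 (32.2%) had an induced peak, the highest at Nkx2-6 (207), Nkx3-2 (174) and Phox2a (163). The share in Hox genes was 26.3%. A non-induced peak lay at 1 of the 87, Bsx (72.8), and at 5 of the 38 Hox genes. With so few genes per list, whether any of them differs from the background or from Hox genes was not tested.

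Of 16 noncoding genes of the clusters 5 (31.3%) had an induced peak within 1 kb of a border, where 4.69% of all lncRNA and microRNA genes had one. They were Mir196b (score 167), Mir615 (120.53), Hoxaas2 (76.2), Hotair (54.60) and Mir10a (54.58). Of the 16, 0 had a non-induced one, which allows up to 18.8% (background 1.29%). Within 5 kb of a border 4 of the 16 had a non-induced peak, without a share of all such genes to set beside it. The 1 kb border rule leaves out peaks deeper inside a gene. Induced peaks lay inside Hoxaas3 and Hoxb5os, and a non-induced peak (score 59.3) inside Hoxb3os. These genes lie among the Hox genes and share their peaks.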

How the data were processed

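ChIP-seq peak lists of induced and non-induced MEFs were used, 1 for each group. The submitters' processing notes name Bowtie2 and mm10. The peak names in the deposited files show that the authors' caller was MACS. For each peak the authors deposited a position and a score. Neither labels nor files state the score's formula, the calling threshold, the versions or any pooling. Both lists begin at a score of 50. The lists were assigned by the marks for with and without in their names and in the sample titles. Both names also carry the mark inp, which may mean that peaks were called against input. The names alone do not settle this. No read counts are in the lists, so depth is unknown.

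Starts were made 1-based. Genes, with their outer borders, came from RefSeq (GRCm38.p6), with strand from its promoter windows. A peak was at a border if at least 1 bp lay within the window. Shares have Clopper-Pearson intervals, and a share of 0 has a limit of 3 counts. The design held no test. Members and gene lists were chosen with earlier results of these data known. Every member with a border peak is named, and of other lists up to 4 induced and 2 non-induced genes of highest score. Some items of the list of other homeobox genes are not reported here and were left out of its counts. The functions recovered simulated peaks, and their gene counts differed from bedtools 2.31.1 by 0. Software was SciPy 1.17.1, pandas 2.3.3, numpy 2.4.6, Python 3.11.15 and matplotlib 3.10.9. Alternatives were other score limits, lists of equal length, windows, cluster limits, merging and overlaps.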

Additional observations from a re-analysis of the deposited data

How the results depend on the processing

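Counts in the induced list moved by more than 1.5 times when scores were limited. With scores of at least 100, 3 genes had an induced peak within 1 kb, 13 within 5 kb and 6 inside, and 6 induced peaks were left in the clusters. With scores from the joint median upwards (61.6, over both lists), 15 induced peaks were left. The non-induced counts moved under more alternatives, but these cut the 2 lists unequally. The joint median lies below the induced list's own median (66.6) and above that of the non-induced list (60.2). Equal length shortens the non-induced list alone. The larger moves can therefore not be read as a trait of the non-induced peaks. At the joint median 2 genes were left within 1 kb, 3 within 5 kb and 0 inside, with 2 peaks in the clusters. With lists of equal length these were 3, 4 and 1 genes and 3 peaks, and with scores of at least 100 they were 0, 0 and 0 genes and 0 peaks. Around the start alone 2 genes had a non-induced peak within 1 kb. Other alternatives stayed within 1.5 times, and none gave a peak in both lists. The cause of these moves is that fewer peaks, or fewer gene borders, were counted. No paired analysis was possible because each group has 1 list. Unknown depth and the lack of replicates limit every count.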

Other observations

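HoxA was among the places of the genome with most induced peaks. Of windows of 100 kb that begin at a peak and do not overlap, 12 held 9 or more induced peaks, among them 6 on chromosome 4, 2 on chromosome 13 and 1 on chromosome 6, which is HoxA. HoxB and HoxD reached 6 in such a window, that of HoxD with peaks beside the cluster, and HoxC 4. In the non-induced list HoxA and HoxB reached 2 and HoxC and HoxD 1.

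Of the genes beside the clusters, 3 of 18 (16.7%, near the 13.4% of all protein-coding genes) had an induced border peak within 1 kb, Skap2 (79.3), Smug1 (71.3) and Ube2z (56.7), and 1 (5.56%; all genes 1.59%) a non-induced one, Atf2 (66.7). Genes of this list can lie far from a cluster: the Atf2 peak began at 73892990 on chromosome 2, where HoxD begins at 74668225. Evx2, the homeobox gene next to Hoxd13, had an induced peak of score 132 inside it (74657957 to 74659384), more than 1 kb from its borders.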
